A study of Mus musculus with 32 samples.

Results

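The genes described here are the CDK inhibitor genes of the mouse, in 2 models of MYC-driven brain tumor. They are the Cdkn2 locus, with Cdkn2a, Cdkn2b and the noncoding transcript Gm12609, the INK4 genes Cdkn2c and Cdkn2d, and the KIP genes Cdkn1b and Cdkn1c. The 7 genes were taken by name, and the list was chosen by their counts in the same 14 tumors, so the difference between the models is given as a description, with no p. A row was matched for 6 of the 7 among the 37310 genes of the count table, and Cdkn2d is not analysed here.

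RNA was sequenced from biopsies of 6 GMYC and 8 GTML tumors. GMYC mice carried Glt1-tTA and TRE-MYC. In GTML mice the same Glt1 promoter directed MYCN in place of MYC. Both are Tet-OFF systems, in which the Glt1 promoter drives the activator tTA in glutamate transporter-positive cells of the hindbrain, and doxycycline switches the oncogene off. Both groups share the FVB/N background, the driver, the tet system and the hindbrain site, and differ in the oncogene. In the paper, GTML tumors took longer on average to appear than GMYC tumors, so age at biopsy may differ as well. The labels name each library as a tumor biopsy of its model without age, sex or date, so p-values measure the spread between these biopsies. By the paper's account most or all of the GTML libraries came from earlier sequencing. The labels do not give the sequencing run, so model and run cannot be told apart in the comparisons of GTML with GMYC below.

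INK4 proteins bind CDK4 and CDK6 and keep them from pairing with D-type cyclins, which holds the RB protein active and the cell in G1. KIP proteins bind CDK-cyclin complexes more widely. Cdkn2a is unusual in giving unrelated proteins from separate first exons joined to shared exons read in different frames. They are p16INK4a, an INK4 protein, and p19ARF, which binds MDM2 and so stabilises p53. ARF is a classic sensor of excess MYC activity, and the locus is commonly silenced or deleted in cancer.

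The starts of the locus are shown because the counts of its genes moved together between the models. The windows run from 250 bases before to 50 bases after a gene start and come from RefSeq on GRCm38.p6, written 5′ to 3′ on the strand of the gene. Capitals mark GGGCGG, the core of a GC box, on either strand. A second motif, the E-box CACGTG that MYC and MYCN bind, was also searched on both strands and occurred in none of these 4 windows. The Arf start lay at chr4:89294570-89294869 (minus strand), the Ink4a start at chr4:89282143-89282442 (minus strand), the Cdkn2b start at chr4:89310983-89311282 (minus strand), and the Gm12610 start at chr4:89294930-89295229 (plus strand).
Arf start of Cdkn2a: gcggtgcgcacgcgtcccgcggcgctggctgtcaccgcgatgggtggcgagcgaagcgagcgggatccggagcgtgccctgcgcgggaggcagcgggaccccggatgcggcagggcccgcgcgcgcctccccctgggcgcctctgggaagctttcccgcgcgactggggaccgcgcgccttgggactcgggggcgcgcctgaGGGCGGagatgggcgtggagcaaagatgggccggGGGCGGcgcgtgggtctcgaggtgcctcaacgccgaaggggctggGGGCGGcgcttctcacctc
Ink4a start of Cdkn2a: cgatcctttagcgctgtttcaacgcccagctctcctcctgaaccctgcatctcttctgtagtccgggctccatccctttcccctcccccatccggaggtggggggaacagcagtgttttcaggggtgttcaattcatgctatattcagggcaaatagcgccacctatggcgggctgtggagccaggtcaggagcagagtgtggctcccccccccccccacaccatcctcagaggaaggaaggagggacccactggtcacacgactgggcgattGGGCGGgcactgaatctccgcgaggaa
Cdkn2b: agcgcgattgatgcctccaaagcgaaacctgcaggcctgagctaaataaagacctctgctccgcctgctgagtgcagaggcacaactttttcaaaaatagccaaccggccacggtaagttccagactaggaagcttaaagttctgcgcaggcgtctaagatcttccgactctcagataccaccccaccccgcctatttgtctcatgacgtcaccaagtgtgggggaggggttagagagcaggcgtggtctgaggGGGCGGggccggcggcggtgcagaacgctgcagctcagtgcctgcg
Gm12610: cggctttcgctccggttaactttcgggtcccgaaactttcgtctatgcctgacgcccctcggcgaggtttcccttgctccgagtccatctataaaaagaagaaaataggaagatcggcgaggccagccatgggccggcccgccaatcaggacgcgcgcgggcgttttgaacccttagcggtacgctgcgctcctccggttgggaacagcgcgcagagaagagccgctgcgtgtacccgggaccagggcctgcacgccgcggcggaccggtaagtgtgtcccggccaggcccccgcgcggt

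The Arf window held 3 GGGCGG motifs, and the Ink4a and Cdkn2b windows 1 each. Over all 32851 windows of the table, 35.7% held at least 1 GGGCGG and 7.2% at least 1 CACGTG. CpG pairs numbered 45 in the Arf window, more than in 98.1% of all windows, against 12 at the Ink4a start and 18 at the Cdkn2b start. The median window held 7. In RefSeq, Gm12610 ran from the plus strand, with its start 561 bases from the Arf start and 37 CpG pairs in its window. This may not be the start of the Gm12610 gene that was counted. RefSeq lists Gm12609 as another name of Gm12610 and also gives it the name ANRIL, after the human antisense transcript of this locus. The Ink4a start lay 12427 bases from the Arf start. The deposited table holds 1 count for each gene, so reads of Arf and Ink4a are summed in Cdkn2a. A strand setting is not given in the sources used here, so reads of the plus-strand transcripts and of the genes they overlap cannot be told apart.

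The libraries held 6218378 to 7279811 counts for GMYC and 4602294 to 6317404 for GTML. Values below are CPM, the count of a gene scaled to a common library total with TMM factors. Genes annotated as snoRNA took more than 0.3% of counts in GMYC tumors 1 to 4 and GTML tumors 1 and 2 and less in the others. This split crosses both models and follows the order in which the samples are listed. What it stands for was not tested, so results are also given within each side. The study sets 1 GTML tumor apart for features of the SHH group of medulloblastoma and compares the models without it. All 8 are used here, and values without GTML tumor 2 are given for some genes. GTML tumor 2 had the highest fibroblast gene Col1a1 (157 CPM) and the lowest photoreceptor factor Crx (97.4 CPM) of the GTML group. Its sum of Group 3 medulloblastoma genes was the lowest of the group (1015 CPM), but Npr3 from that list was the highest (176 CPM). The fibroblast genes as a list summed highest in GTML tumor 8. The labels do not say which tumor the study set apart. The driver genes followed the labels, although reads of a transgene and of the mouse gene cannot be told apart. Myc lay between 33.3 and 165 CPM in GMYC tumors and at most at 8.66 CPM in GTML tumors, while Mycn lay between 119 and 191 CPM in GTML tumors and at most at 34.3 CPM in GMYC tumors.

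Cdkn2a, which encodes p16INK4a and p19ARF, had low counts in GMYC tumors and higher counts in every GTML tumor. GMYC tumors 1 to 6 had 6, 9, 57, 17, 15 and 1 counts. In GTML tumors the count was 133 at the lowest and 403 at the highest, and the CPM was 25.8 at the lowest, 34.2 at the median and 65.4 at the highest. The highest GMYC tumor, tumor 3 with 8.70 CPM, thus stayed below the lowest GTML tumor. Means were 2.61 ± 3.11 CPM (SD, n = 6) in GMYC and 38.1 ± 12.9 CPM (SD, n = 8) in GTML, a ratio of 14.6 and a log2 fold change of 3.87 with a standard error of 0.568. The GMYC mean rests on tumor 3. Without it the log2 fold change was 4.76. Leaving out GTML tumor 2 instead gave a log2 fold change of 3.71 and a GTML mean of 34.2 ± 7.27 CPM (SD). In bulk RNA, fewer cells expressing a gene and less RNA per cell cannot be told apart.

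Cdkn2b encodes p15INK4b, an INK4 protein that TGF-beta signaling is known to induce. The 6 GMYC tumors had 10, 6, 13, 18, 4 and 7 counts, or 0.643 to 2.42 CPM. The 8 GTML tumors had 72 to 124 counts, with 12.7 CPM at the lowest, 20.2 at the median and 23.4 at the highest. The models did not overlap, and the GTML values fell into a lower set of tumors 1, 3 and 8 (12.7 to 13.7 CPM) and a higher set of the other 5 (20 to 23.4 CPM). Means were 1.39 ± 0.698 CPM (SD, n = 6) and 18.5 ± 4.45 CPM (SD, n = 8), a ratio of 13.3 and a log2 fold change of 3.71 with a standard error of 0.328.

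Gm12609, the noncoding transcript on the plus strand of the locus, had 4, 1, 5, 0, 1 and 0 counts in GMYC tumors 1 to 6. GTML tumors had 31 to 74 counts, with 5.46 CPM at the lowest, 8.34 at the median and 12.2 at the highest. No GMYC tumor reached 1 CPM, so the gene passed the filter on low counts through GTML tumors alone and had to differ. Means were 0.273 ± 0.319 CPM (SD, n = 6) and 8.74 ± 2.55 CPM (SD, n = 8). The fitted log2 fold change of 4.92 (standard error 0.575) rests on few GMYC counts and ranged from 4.66 to 6.48 over the alternative settings.

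**Figure D1:**
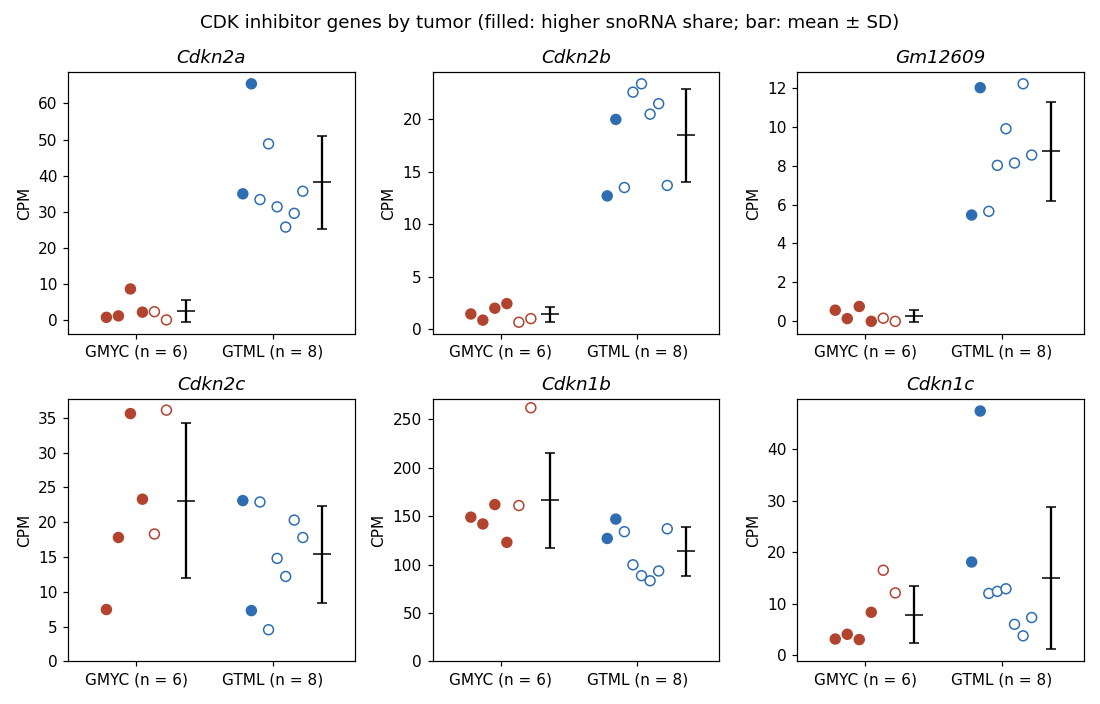
CPM of the 6 measured CDK inhibitor genes in each tumor, GMYC in red and GTML in blue, with tumors of higher snoRNA share filled and the mean ± SD beside each group. For Cdkn2a, Cdkn2b and Gm12609 every GTML tumor lay above every GMYC tumor, whereas Cdkn2c, Cdkn1b and Cdkn1c overlapped.

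Of the 6 measured genes, 3 passed the thresholds used for all genes (an adjusted p below 0.01 together with a log2 fold change beyond 1 in size), all 3 higher in GTML and 0 higher in GMYC. Of all 21024 genes tested, 3.22% passed in either direction, 2.11% higher in GTML and 1.10% higher in GMYC. The same 3 had every GTML tumor above every GMYC tumor, as had 2.14% of all genes, and none had the reverse order, which 2.48% of all genes had. The genes were chosen on this contrast and Gm12609 passed the low-count filter through GTML alone, so these counts are a description and nothing is read from them. The pattern was present on both sides of the snoRNA split. Among the 4 GMYC and 2 GTML tumors with the higher share, Cdkn2a spanned 0.860 to 8.70 CPM in GMYC and 35.0 to 65.4 CPM in GTML. Among the 2 GMYC and 6 GTML tumors with the lower share, it spanned 0.141 to 2.41 CPM and 25.8 to 48.8 CPM.

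Cdkn2c encodes p18INK4c, an INK4 inhibitor known to restrain neural progenitors, and lies elsewhere on the same chromosome. It did not follow the Cdkn2 locus. GMYC tumors 1 to 6 had 52, 127, 233, 173, 114 and 256 counts, with 7.45 CPM at the lowest, 20.8 at the median and 36.1 at the highest. GTML tumors 1 to 8 had 131, 45, 138, 25, 69, 63, 108 and 117 counts, with 4.55 CPM at the lowest, 16.3 at the median and 23.1 at the highest. The models overlapped widely. The means of 23.1 ± 11.1 CPM (SD, n = 6) and 15.4 ± 6.96 CPM (SD, n = 8) differed by a log2 fold change of -0.59 with a standard error of 0.378. The 2 lowest GTML values, in tumors 4 and 2, were those of the GTML tumors with the most Cdkn2a.

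The makeup of the measured INK4 genes differed between the models. Cdkn2a counts hold reads of both Arf and Ink4a, and ARF is not an INK4 protein. From read coverage, the paper reports that GTML tumors seemed to use mainly the Arf transcript. The share of Cdkn2a below is therefore not a share of p16INK4a RNA. Per kb of exon, Cdkn2a, Cdkn2b and Cdkn2c summed to 11.8 ± 6.06 CPM per kb (SD, n = 6) in GMYC and 51.6 ± 10 CPM per kb (SD, n = 8) in GTML. Cdkn2c made up 73.0 ± 12.8% of this sum in GMYC, from 59.9% to 94.2%, and 11.8 ± 5.96% in GTML, from 2.8% to 18.3%. Cdkn2a made up 61.9 ± 8.56% in GTML, from 52.3% to 76.6%. The ratio of Cdkn2a counts to Cdkn2b counts was 2.16 ± 0.758 (SD, n = 8) in GTML, from 1.25 to 3.28. In GMYC the ratio spanned 0.143 to 4.38, on small counts.

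**Figure D2:**
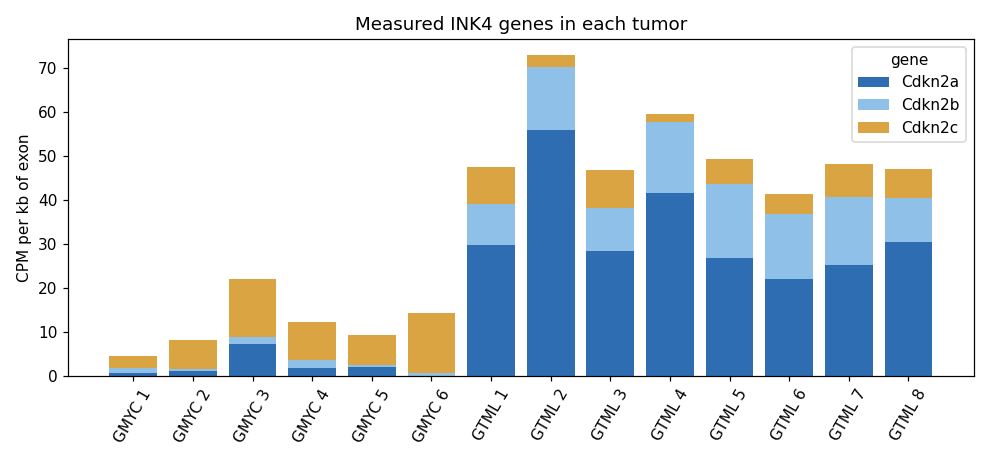
Stacked bars of Cdkn2a, Cdkn2b and Cdkn2c in each tumor, in CPM per kb of exon from 0. The GMYC bars reach 4.54 to 22.1 CPM per kb and are mostly Cdkn2c, and the GTML bars reach 41.3 to 72.9 CPM per kb and are mostly Cdkn2a. The Cdkn2a part holds reads of both Arf and Ink4a.

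Cdkn1b encodes p27KIP1, which binds cyclin E-CDK2 and is held low mainly through protein turnover. Its count was 914 to 1855 in GMYC and 412 to 906 in GTML. The CPM in GMYC was 123 at the lowest, 155 at the median and 262 at the highest, in tumor 6. In GTML it was 83.3 at the lowest, 114 at the median and 147 at the highest. The models overlapped. Means were 167 ± 48.8 CPM (SD, n = 6) and 114 ± 25.2 CPM (SD, n = 8), with a log2 fold change of -0.55 and a standard error of 0.175. The value depended on the side of the snoRNA split: the log2 fold change was -0.06 on the higher side and -1.01 on the lower. Without GMYC tumor 6 it was -0.37.

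Cdkn1c encodes p57KIP2, an imprinted KIP inhibitor of differentiating and mesenchymal cells. Counts in GMYC tumors 1 to 6 were 22, 29, 20, 62, 103 and 86, or 3.05 to 16.5 CPM. Counts in GTML tumors 1 to 8 were 103, 292, 72, 68, 60, 31, 20 and 48, or 3.77 to 47.4 CPM. The models overlapped, and the spread of GTML rested on tumor 2. The GTML mean of 15 ± 13.9 CPM (SD, n = 8) became 10.4 ± 4.92 CPM (SD, n = 7) without it, against 7.88 ± 5.54 CPM (SD, n = 6) in GMYC. The log2 fold change of 0.93 (standard error 0.546) became 0.39 without GTML tumor 2. It was 2.82 among tumors of higher snoRNA share and -0.67 among those of lower share, so its sign was not the same on both sides.

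The fibroblast and meninges genes, 7 of 7 found, are given beside Cdkn1c because mesenchymal cells express it. They summed to 116 to 720 CPM in GMYC and 49.9 to 1066 CPM in GTML, with 962 CPM in GTML tumor 2. The highest sum was in GTML tumor 8, which had 7.32 CPM of Cdkn1c, and the lowest GMYC sum of 116 CPM was in tumor 5, which had the highest GMYC Cdkn1c of 16.5 CPM. The part of these cells in the Cdkn1c values was not tested.

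Cdkn1a, which encodes p21CIP1 and is a p53 target, was not among the chosen genes. It lay at 34.6 ± 10.3 CPM (SD, n = 6) in GMYC, from 23.7 to 53.3, and at 17.3 ± 9.68 CPM (SD, n = 8) in GTML, from 3.08 to 32.9. The log2 fold change was -1.0 (standard error 0.377), which did not pass the threshold (adjusted p = 0.0691, edgeR quasi-likelihood test with Benjamini-Hochberg adjustment over all genes). The adjusted p ranged from 0.0265 to 0.323 over the alternatives. The lowest Cdkn1a, 3.08 CPM, was in GTML tumor 2, which had the highest Cdkn2a. Cdkn3, a phosphatase that acts on CDKs, had a log2 fold change of -0.14 (adjusted p = 0.759).

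The neighbours of the locus were examined in genome order, 5 on either side of Cdkn2a, Cdkn2b and Gm12609. Gm12610, a plus-strand transcript that follows Gm12609 in genome order, had 3, 2, 9, 7, 1 and 0 counts in GMYC tumors and 28 to 76 counts in GTML tumors. Its mean was 0.531 ± 0.524 CPM (SD, n = 6) in GMYC and 9.43 ± 3.20 CPM (SD, n = 8) in GTML, with a log2 difference of 4.10 (standard error 0.548). In the annotation used for exon lengths, Gm12610 begins after both Cdkn2b and Gm12609 in genome order. The RefSeq window shown above, beside Arf, therefore may not be the start of this counted gene. Whether the 2 are the same transcript was not established. Gm12608, a processed pseudogene inside the span of Gm12610, had 0 to 4 counts in GMYC and 16 to 45 in GTML, a log2 difference of 3.86 (standard error 0.547). Both passed the filter on low counts through GTML tumors and had to differ, so their values are a description, with no p. For both genes every GTML tumor lay above every GMYC tumor.

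The protein-coding genes on either side did not pass the thresholds. Mtap, which encodes the methionine salvage enzyme often co-deleted with CDKN2A in human cancer, lay at 69.0 ± 20.7 CPM (SD, n = 6) in GMYC and 69.9 ± 35.1 CPM (SD, n = 8) in GTML, a log2 difference of 0.02 (standard error 0.281, adjusted p = 0.967). Dmrta1, a transcription factor gene on the other side, differed by 1.84 on the log2 scale (standard error 0.994, adjusted p = 0.184), which became 0.34 without GTML tumor 2. That tumor had 56.3 CPM of Dmrta1 and at most 5.81 CPM was found in the other GTML tumors. Gm12607 had a log2 fold change of 0.62 (adjusted p = 0.427). The long noncoding Gm12606 had at most 1 count in a GMYC tumor and 1 to 4 counts in GTML tumors, too few for a test, and the snoRNA Gm26490 at most 5 counts in any tumor. Gm12629 had 0 counts in every tumor, and the other 2 neighbours are not analysed here.

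**Figure D3:**
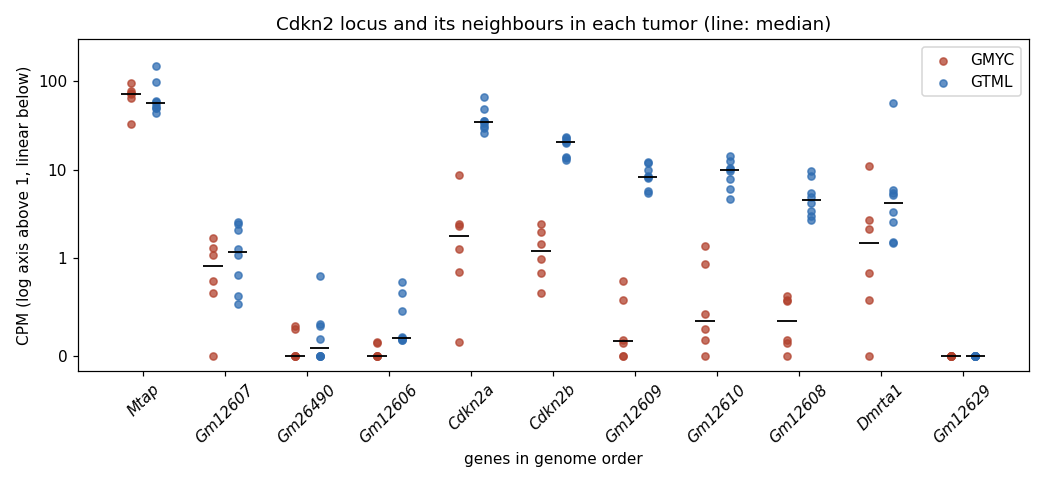
CPM of the locus and its neighbours in genome order, 1 point per tumor with the median as a line, on an axis that is logarithmic above 1 and linear below. The models are apart from Cdkn2a through Gm12608, at Mtap the medians are 72.0 and 56.2 CPM, and at Dmrta1 the points overlap.

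The order of the measured genes within a model was compared per kb of exon. In GMYC tumors Cdkn1b was the highest at 36.6 ± 10.7 CPM per kb, followed by Cdkn2c at 8.60 ± 4.15, Cdkn1c at 3.87 ± 2.72, Cdkn2a at 2.23 ± 2.65, Cdkn2b at 0.997 ± 0.502 and Gm12609 at 0.447 ± 0.523 (SD, n = 6). In GTML tumors Cdkn2a was the highest at 32.5 ± 11.0 CPM per kb, followed by Cdkn1b at 25.0 ± 5.53, Gm12609 at 14.3 ± 4.19, Cdkn2b at 13.3 ± 3.20, Cdkn1c at 7.34 ± 6.79 and Cdkn2c at 5.72 ± 2.59 (SD, n = 8). Cdkn1b exceeded Cdkn2c in 6 of 6 GMYC tumors, by 2.21 ± 0.73 on the log2 scale (SD). Cdkn2a exceeded Cdkn1b in 7 of 8 GTML tumors, by 0.35 ± 0.35 on the log2 scale (SD).

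None of the 10 pairs of neighbours in these orders passed an adjusted p of 0.05 in an exact two-sided sign-flip permutation test. The smallest p the test allows is 0.0312 for 6 tumors and 0.00781 for 8. Before adjustment 5 pairs were under 0.05, and their adjusted p was 0.0625 (exact permutation test, Benjamini-Hochberg over 10 pairs). In GMYC these were Cdkn1b over Cdkn2c and Cdkn2b over Gm12609, and in GTML they were Cdkn2a over Cdkn1b, Cdkn1b over Gm12609, and Cdkn2b over Cdkn1c. The orders were set by the same values that were tested, and the genes were chosen by counts in these tumors, so these p are a description. Gm12609 passed the low-count filter through GTML tumors alone, so nothing is read from its low place in GMYC. Gm12609 and Cdkn2b in GTML (mean log2 difference 0.09 ± 0.30) and Cdkn1c and Cdkn2c in GTML (0.14 ± 1.59) lay within their spread.

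Within GTML tumors, where both genes were well counted, the levels of Cdkn2a, Cdkn2b and the driver Mycn showed no detectable relation. Pearson's r of log2 CPM between Cdkn2a and Cdkn2b was 0.0939 (exact permutation p = 0.838, n = 8) and Spearman's rho was -0.214 (exact permutation p = 0.619). Between Mycn and Cdkn2a r was 0.00168 (exact permutation p = 0.997) and rho was 0.0476 (exact permutation p = 0.935). Between Mycn and Cdkn2b r was -0.0435 (exact permutation p = 0.915) and rho was -0.0714 (exact permutation p = 0.882). After Benjamini-Hochberg adjustment over the 3 pairs the exact permutation p of r was 0.997 for each and that of rho 0.935. Without the 2 tumors farthest from the median of the first gene, r was -0.743, -0.772 and -0.262 in the same order, so the values rest on few tumors.

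The genes most like Cdkn2a across all 14 tumors by Pearson's r of log2 CPM were Gm12610 (0.953), Plod3 (0.948) and Gm12609 (0.936). Those most like Cdkn2b were Gm12610 (0.968), Mycs (0.964) and Gm12609 (0.962). These values contain the difference between the models, and the 14 libraries share 1 labelled preparation protocol. Mycs, a copy of Mycn without introns, lay at 0.137 CPM in GMYC and 14.0 CPM in GTML, and its reads may be shared with those of Mycn. With each model mean taken off, the nearest genes were Ankib1 (0.934), Fgf13 (0.892) and Mrm3 (0.878) for Cdkn2a, and Gm13427 (0.858), Tsc2 (0.844) and Lrrtm1 (0.829) for Cdkn2b. Gm12609 and Gm12610 were no longer among them.

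Partners, targets and regulators of the CDK inhibitors were taken as 8 lists, in which 134 genes were tested. Both thresholds were passed by 3 of them, each with more RNA in GTML, and by 0 in the other direction. Of the 3, Tspan32 met the low-count filter through GTML tumors, so its place in this count is a description. Over all genes 2.11% passed higher in GTML and 1.10% higher in GMYC, so the count for the lists is near the background. Unadjusted p under 0.05 was reached by 37.8% of all genes, which is the background for the counts of such genes in the lists below. Among CDKs and cyclins, 14 of 15 genes were tested and 1 passed both thresholds. This was Ccnd1, the D-type cyclin that activates CDK4 and CDK6, which rose from 34.0 ± 21.6 CPM (SD, n = 6) in GMYC to 111 ± 22.5 CPM (SD, n = 8) in GTML (log2 fold change 1.71, standard error 0.291, adjusted p = 0.00323). GTML values began at 86.3 CPM, above the 75.7 CPM of GMYC tumor 2, the highest of its model. The call held with each tumor left out. It was lost within the tumors of higher snoRNA share (1.73, adjusted p = 0.328) and with a block for replicate number (1.95, adjusted p = 0.0205). In the list 4 genes were higher and 10 lower in GTML, with a median log2 fold change of -0.39 against 0.04 over all genes tested. Of the 14 genes, 9 were at an unadjusted p under 0.05, against 37.8% of all genes. Cdk2 had a log2 fold change of -0.64 (adjusted p = 0.00848) and Cdk4 one of -0.40 (adjusted p = 0.0149), and neither passed both thresholds. Cdk6 had the largest negative value, -1.73, with an adjusted p of 0.0657.

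Among the RB and E2F family, 16 of 16 genes were tested and 0 passed the thresholds by edgeR, with 3 at an unadjusted p under 0.05 and a median log2 fold change of 0.08. Rbl2, which encodes the pocket protein p130, had the smallest p (log2 fold change 0.60, adjusted p = 0.0206), while Rb1 was at 0.12 (adjusted p = 0.599) and E2f1 at -0.03 (adjusted p = 0.865).

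Among the partners of ARF and the p53 axis, 16 of 16 were tested and 0 passed, with 5 at an unadjusted p under 0.05 and a median of -0.13. In the list 6 genes were higher and 10 lower in GTML. The p53 targets with the smallest p had lower means in GTML. Ccng1 lay at 163 ± 17.1 CPM (SD, n = 6) and 92.3 ± 30.9 CPM (SD, n = 8), with a log2 fold change of -0.82 (adjusted p = 0.0102). Bax had a log2 fold change of -0.45 (adjusted p = 0.0372), and Mdm2, whose protein ARF binds, one of -0.24 (adjusted p = 0.0493). Other p53 targets of the list were nearer to no change: Zmat3 at 0.03, Bbc3 at 0.03, Pmaip1 at -0.03, Phlda3 at -0.13 and Sesn2 at -0.18. Eda2r was at -0.55, and Cdkn1a is given above. Trp53 itself was at 0.37 (adjusted p = 0.129).

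Genes known to repress the locus, chiefly Polycomb subunits and DNA methyltransferases, numbered 27, of which 26 were tested and 0 passed both thresholds. The repressor list had 11 genes at an unadjusted p under 0.05, 14 higher and 12 lower in GTML, and a median of 0.04. Phc1, a subunit of Polycomb complex 1, was at 80.8 ± 20.9 CPM (SD, n = 6) and 154 ± 39.2 CPM (SD, n = 8), with a log2 fold change of 0.93 (adjusted p = 0.00757), short of the fold threshold. The log2 fold change of Phc1 was 0.20 on the higher side of the snoRNA split and 1.53 on the lower side. The Polycomb complex 2 genes Eed (-0.54, adjusted p = 0.0109), Ezh2 (-0.30, adjusted p = 0.0709) and Suz12 (-0.09, adjusted p = 0.535) and the complex 1 gene Bmi1 (-0.26, adjusted p = 0.0549) had lower means in GTML without passing. Hdac2, a histone deacetylase gene, was at -0.37 (adjusted p = 0.0091), and Tbx2, a T-box repressor of Arf and Ink4a, at 1.58 (adjusted p = 0.0437).

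Genes known to activate the locus numbered 24, of which 24 were tested and 0 passed, with 10 at an unadjusted p under 0.05 and a median of 0.03. Smad3, a mediator of TGF-beta signaling, had a log2 fold change of 0.96 (adjusted p = 0.0129), and the receptor gene Tgfbr1 one of -0.45 (adjusted p = 0.0132). Fos, an AP-1 gene, had 7.83 ± 1.79 CPM (SD, n = 6) and 27.7 ± 24.0 CPM (SD, n = 8), a log2 fold change of 1.82 (adjusted p = 0.0144). Dmtf1, which encodes an activator of Arf, was at -0.04 (adjusted p = 0.826).

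**Figure D4:**
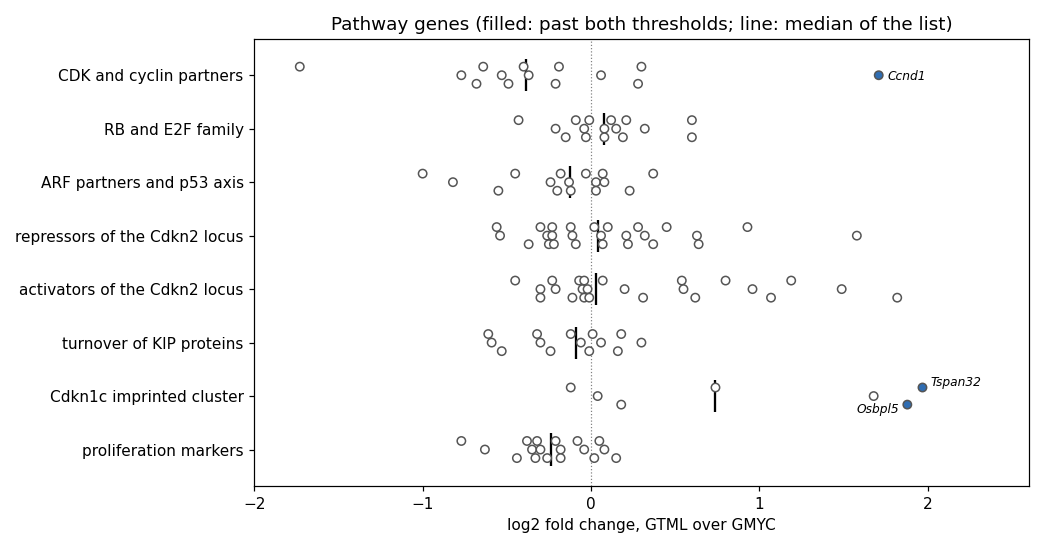
Log2 fold change of GTML over GMYC for each tested gene of the 8 lists, with the median of each list as a line and genes past both thresholds filled. Only Ccnd1, Osbpl5 and Tspan32 are filled, and list medians lie between -0.39 and 0.74.

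Among genes for the turnover of KIP proteins, 14 of 14 were tested and 0 passed, with 6 at an unadjusted p under 0.05 and a median of -0.09. Skp2, the ubiquitin ligase subunit that recognises p27KIP1, was at 0.06 (adjusted p = 0.843). Ubac1, a subunit of another ligase for p27KIP1, had the smallest p at a log2 fold change of -0.32 (adjusted p = 0.0223).

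In the imprinted cluster that holds Cdkn1c, 7 of 10 genes were tested and 2 passed, both higher in GTML, where 2.11% of all genes passed. Tspan32, which passed, and Ascl2 (mean 0.654 CPM in GMYC and 2.11 CPM in GTML) met the low-count filter through GTML tumors. The counts and the median of this list are therefore a description. Of the 7 genes, 4 were at an unadjusted p under 0.05, against 37.8% of all genes, and the median was 0.74. Osbpl5, a lipid transfer protein gene, rose from 11.8 ± 5.92 CPM (SD, n = 6) to 43.6 ± 11.4 CPM (SD, n = 8), by 1.88 on the log2 scale (standard error 0.308, adjusted p = 0.00279). Tspan32, a tetraspanin gene, lay at 0.914 ± 0.223 CPM (SD, n = 6) and 3.64 ± 1.80 CPM (SD, n = 8), a log2 difference of 1.97 (standard error 0.383). It passed the filter on low counts through GTML tumors, so its difference is a description. The models did not overlap for either. The Tspan32 call was lost on leaving out GMYC tumor 1, 3, 4 or 5 or GTML tumor 5, 6 or 7. It was also lost on each side of the snoRNA split, with a term for that split, and with a block for replicate number. The Osbpl5 call held with each tumor left out. It was lost within the higher side of the split (1.99, adjusted p = 0.234) and with a block for replicate number (1.94, adjusted p = 0.023).

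Proliferation markers, 18 of 18 tested, had 0 past the thresholds, 6 at an unadjusted p under 0.05 and a median of -0.23, with 4 genes higher and 14 lower in GTML. Ccnb1 (-0.77, adjusted p = 0.0176), Plk1 (-0.63, adjusted p = 0.0297) and Aurkb (-0.38, adjusted p = 0.0392) had the smallest p. Mki67 was at -0.18 (adjusted p = 0.448). These values stand beside those of the CDK inhibitors, and their part in them was not tested.

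Markers of the modelled tumor and of other cells were compared as sums. The 11 genes chosen for Group 3 medulloblastoma, the tumor that the study models, summed to 1368 to 2173 CPM in GMYC and 1015 to 1977 CPM in GTML. Otx2, which marks these tumors, lay between 237 and 377 CPM in every tumor. Eomes is also in the list of 11, although it marks another medulloblastoma group and unipolar brush cells as well. It was at most at 3.41 CPM. All 8 astrocyte genes had a negative log2 fold change, and they summed to 808 to 1438 CPM in GMYC and 545 to 984 CPM in GTML. Microglia and macrophage genes summed to 247 to 395 CPM and 124 to 531 CPM, and endothelium and pericyte genes to 108 to 435 CPM and 236 to 645 CPM. Oligodendrocyte genes summed to 155 to 367 CPM and 159 to 377 CPM, and genes of cerebellar neurons to 468 to 618 CPM and 455 to 664 CPM. No gene of these lists passed the thresholds, nor did any of the medulloblastoma or fibroblast genes, and no marker was at 0 in every tumor. Of 6 red blood cell genes 3 passed, all higher in GMYC, as did 1.10% of all genes, with sums of 53.8 to 177 CPM in GMYC and 41.9 to 135 CPM in GTML. The part of these cells in the values of the Cdkn2 locus was not tested.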

How the data were processed

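The analysis used RNA counts of 6 GMYC and 8 GTML tumors. The authors aligned reads to mm9 with STAR and Bowtie, counted them per gene with featureCounts on a GENCODE annotation, and deposited raw counts for 37310 genes. The submitters' processing notes list STAR 2.4.0, Bowtie2 2.2 and Subread 1.5.2. Symbols for 32620 genes and exon lengths came from the GRCm38 annotation, by Ensembl identifier. A further 18 columns hold counts per sample under names that no label carries. They were left out, and cultured cells were not analysed here.

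Genes that exceeded 1 CPM in 3 or more tumors were tested with edgeR 4.0.16 in R 4.3.3 (TMM, quasi-likelihood test, Benjamini-Hochberg adjustment over all 21024 genes). DESeq2 1.42.0 and limma 3.58.1 were alternatives. Orders of levels used log2 of CPM per kb plus 0.1, and correlations log2 CPM with a prior count of 2, with exact permutation tests in Python 3.11.15 and scipy 1.17.1. The code was tested on simulated data. A gene's precision depends on its count, which is printed for the members.

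The members and lists were chosen with earlier results of these data known. Named were all members, Myc, Mycn, Cdkn1a, Cdkn3, 5 neighbours on either side, the 3 genes most like Cdkn2a and Cdkn2b by each measure, and from each list up to 3 genes past both thresholds with the smallest p. Other list genes and the cell type markers that are named were chosen after their values were seen. Tumors of 1 model were not duplicates, since the lowest chi-square per degree of freedom between their counts was 5.67.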

Additional observations from a re-analysis of the deposited data

Results flagged for a closer look

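For 20 genes named above (the measured CDK inhibitors, the drivers, the neighbours with enough counts and the list genes with the smallest p), the highest and the lowest tumor of each model were compared with the others by Dixon's ratio. Of 40 groups 8 had a tumor beyond the critical value, where chance alone gives about 1 in 20. Cdkn2a stood out in GMYC tumor 3, at 8.70 CPM against 2.41 CPM in the next tumor. GMYC tumor 6 stood out for 3 genes. It had 262 CPM of Cdkn1b against 162 CPM in the next tumor, 20.7 CPM of Cdkn3 against 8.34 CPM, and the lowest Myc, 33.3 CPM against 134 CPM. GTML tumor 2 stood out for Cdkn1c, at 47.4 CPM against 18.1 CPM, and for Dmrta1, at 56.3 CPM against 5.81 CPM. Dmrta1 was also high in GMYC tumor 5, at 10.9 CPM against 2.69 CPM. Ccnd1 was high in GMYC tumor 2, at 75.7 CPM against 35.0 CPM, which is still below every GTML tumor.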

How the results depend on the processing

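The log2 fold changes of Cdkn2a (3.62 to 4.76), Cdkn2b (3.29 to 4.50) and Gm12609 (4.66 to 6.48) kept their sign over every alternative that could be run. Values that moved by more than the spread between tumors were Gm12609 without GMYC tumor 3 (5.50) and several within the sides of the snoRNA split: with the lower share alone, Cdkn2b 4.50, Gm12609 6.48, Cdkn1b -1.01 and Cdkn1c -0.67, and with the higher share alone, Cdkn1b -0.06 and Cdkn1c 2.82. Gm12609 could not be fitted on the higher side. Leaving out 1 tumor gave 4.66 to 5.50 for Gm12609. Genes past the thresholds numbered 444 higher in GTML and 232 higher in GMYC. They became 1312 and 579 with DESeq2, 269 and 149 without the filter beyond 1 count, 169 and 127 with a term for the snoRNA split, 0 and 2 on its higher side and 83 and 44 on its lower side, and 430 higher in GMYC with limma-voom. Leaving out 1 tumor gave 74 (GMYC tumor 3) to 1038 (GTML tumor 2) higher in GTML, and 40 (GMYC tumor 3) to 586 (GTML tumor 2) higher in GMYC. The causes were not tested. The 3 pathway genes higher in GTML became 5 with DESeq2 or limma-voom, 0 on the higher side of the split, and 2 to 5 with 1 tumor left out (5 without GMYC tumor 2 or GTML tumor 2). With a replicate block the counts were 7, 3 and, for pathway genes, 0. The numbers share no stated origin, and the correlation of same-numbered tumors ranged from -0.212 to 0.24, with only tumor 1 matching its own number best. The order of levels had 0 pairs past the threshold in each setting, which says nothing of stability, since a test of GMYC tumors with 1 left out cannot reach it. No correlation among GTML tumors passed in any. Comparisons of cultured cells were not run, because their columns could not be matched to labels. Depth limits Cdkn2a, Cdkn2b and Gm12609 in GMYC tumors, where 3 counts correspond to 0.412 to 0.482 CPM.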
